A study of Mus with 6 samples.

Results

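The genes of fatty acid and triglyceride synthesis were examined in livers of mice with and without Fabp4. The list holds 36 genes, chosen by symbol for their place in the pathway: lipogenic regulators, enzymes of fatty acid synthesis, desaturation, elongation and activation, suppliers of NADPH, and enzymes of esterification. All 36 were found among the 48882 genes of the expression table, and all 36 passed the abundance filter of a mean of at least 0.5 TPM, a unit that gives each transcript as a share of all, corrected for its length. RNA was sequenced from 6 liver samples. The 3 knockout (KO) samples came from FABP4-/- mice and the 3 wild type (WT) samples from their littermates. Mice of both groups had been fed a Lieber-DeCarli liquid diet containing ethanol for 8 weeks and were then given 1 ethanol binge, a regimen that models alcoholic steatohepatitis (ASH, fatty liver with inflammation). The labels name no strain, sex, age, feeding state at collection or construction of the knockout allele, and no liver without ethanol enters the comparison. Fabp4 is a fatty acid carrier of adipocytes, macrophages and capillary endothelium, and the question here is how the lipid synthesis transcripts of the liver stand when it is missing in ASH.

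In the liver, surplus carbohydrate is turned into fat. Citrate leaves the mitochondrion and is split to acetyl-CoA, which is carboxylated to malonyl-CoA and assembled into palmitate with NADPH as reductant. Palmitate is then elongated, desaturated, activated to acyl-CoA and joined to glycerol as triglyceride. Transcription of these enzymes is driven by SREBP-1c, encoded by Srebf1 and stimulated by insulin, and by ChREBP, encoded by Mlxipl and stimulated by glucose. Ethanol feeding is known to raise lipogenesis in rodent liver.

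TPM keeps no sequencing depth, so the number of reads behind each value is unknown. The deposited values also share 1 distribution across libraries, so a shift of all genes cannot be seen. Fabp4 (mm10 chromosome 3, 10204342 to 10208602) lay at 14.7, 8.15 and 19.96 TPM in the WT libraries and had no value in any KO library, as the labels would have it. Of the 10 hepatocyte markers, Alb has the same value in every library because of that shared distribution, and the other 9 summed to 33880 to 45310 TPM in WT and 37786 to 41004 TPM in KO. WT replicate 2 lay apart from the other libraries on the first principal component of all genes tested (38.1, against -22.3 to 2.50), and KO replicate 1 on the second (-30.8, against -5.92 to 21.8). WT replicate 3, the library on which much of what follows turns, lay among the others on both (1.93 and 6.62). Differences are given as KO minus WT on the log2(TPM + 1) scale, with the standard error (SE) and 95% interval from limma, and this scale understates the change of low genes.

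None of the 36 genes differed between the groups past the threshold (limma, Benjamini-Hochberg adjusted p from 0.536 to 0.999 over 14155 genes; 0.00706% of all genes tested passed, Fabp4 alone). Levels were higher in KO for 23 members and lower for 13, against 57.4% higher and 42.6% lower among all genes tested, and the median difference of the members was 0.087, against 0.038 for all genes. At an unadjusted limma p under 0.05 there were 2 members, Acacb and Acsl4, both lower in KO. Of all genes tested, 8.03% had such a p and 2.91% had it with a lower level in KO. The count of members was 9 without WT replicate 3 (9.27% of all genes tested), 1 without KO replicate 2 and 0 without KO replicate 3. Of the 14155 genes, 648 higher and 300 lower in KO had such a p without KO replicate 2. Without KO replicate 3 these were 427 and 255. The KO values lay wholly below the WT values for 3 members, Acacb, Acsl4 and Agpat3 (4.38% of all genes tested), and wholly above them for 0 (8.94%; 13.3% in either direction). Another setting, chosen after seeing the data, left out the 2 libraries that lay apart on the principal components. There 0 members passed the threshold, 5 had an unadjusted p under 0.05 and 20 were higher in KO. Of the 14155 genes, 516 higher and 465 lower in KO had such a p in that fit.

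The members differed widely between libraries of the same group. The within-group standard deviation of log2(TPM + 1) had a median of 0.33 over the 36 members and 0.21 over all genes tested. It exceeded the all-gene median for 29 members, and 12 of the 36 (33.3%) lay among the most variable 10.0% of genes. In WT the highest library was at least 2 times the lowest for 13 members (36.1%, against 17.3% of all genes tested), and in KO for 7 (19.4%, against 13.9%). These shares describe a list that was chosen with earlier results known, and no test was applied to them. All genes tested reach down to a mean of 0.5 TPM, where log2(TPM + 1) understates the spread. The members were not compared with genes of matched abundance.

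**Figure D1:**
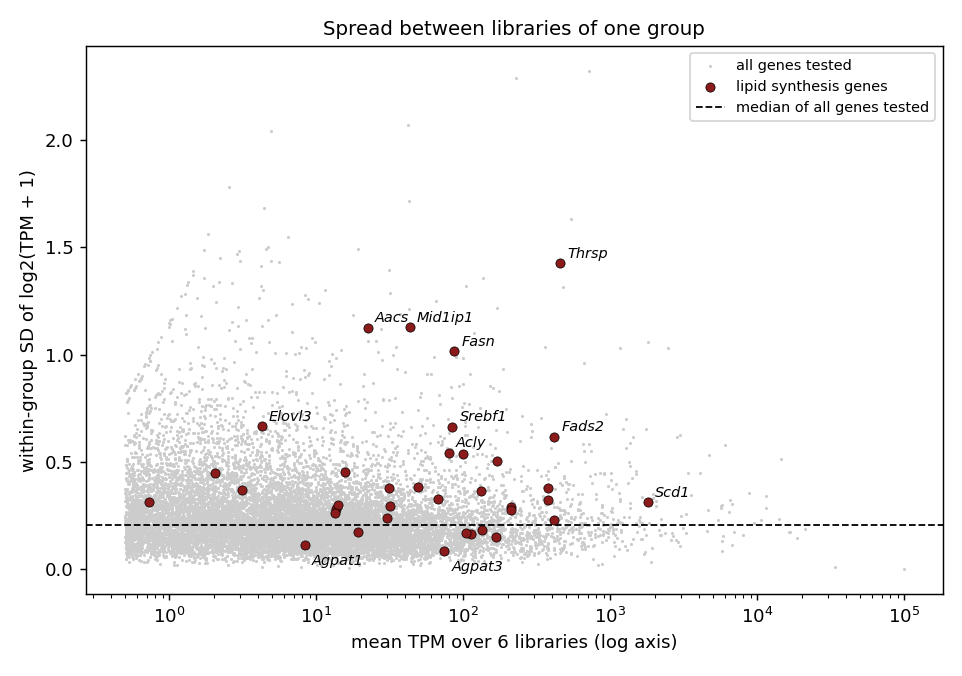
Within-group standard deviation (SD) of log2(TPM + 1), pooled over WT and KO, against the mean TPM of each gene over the 6 libraries on a log axis. Grey points are all genes tested, red points the 36 lipid synthesis genes, and the dashed line is the all-gene median of 0.21. Thrsp, Mid1ip1, Aacs and Fasn lie above 1, whereas Agpat1 and Agpat3 lie below the line.

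In WT, 1 library stood above the other 2 for most members. WT replicate 3 held the highest of the 3 WT values for 28 of the 36 members (77.8%), although it held the highest WT value for 27.3% of all genes tested. It was at least 1.5 times above both other WT libraries for 9 members (25.0%, against 3.89% of all genes): Srebf1, Thrsp, Mid1ip1, Acly, Fasn, Aacs, Elovl6, Lpin1 and Dgat2. WT replicate 1 was that far above both groupmates for 0 members (6.35% of all genes) and WT replicate 2 for 1, Elovl7 (6.31% of all genes). Set against the range of the 3 KO libraries, WT replicate 3 lay within it for 18 members, above it for 16 and below it for 2. WT replicate 1 lay below the KO range for 15 members and WT replicate 2 for 18. The shares of all genes tested in these positions were not computed, so these counts only describe the members. In KO, replicate 1 was highest for 16, replicate 3 for 13 and replicate 2 for 7, close to the shares of all genes tested (44.4%, 36.1% and 19.4% of members, against 42.0%, 34.2% and 23.8%). KO replicate 3 was at least 1.5 times above both groupmates for 4 members, Thrsp, Acly, Scd2 and Fads2 (11.1%, against 4.31% of all genes). KO replicate 1 was that far above for 2, Scd1 and Elovl3 (5.56%, against 6.51%), and KO replicate 2 for 1, Aacs (2.78%, against 2.30%).

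**Figure D2:**
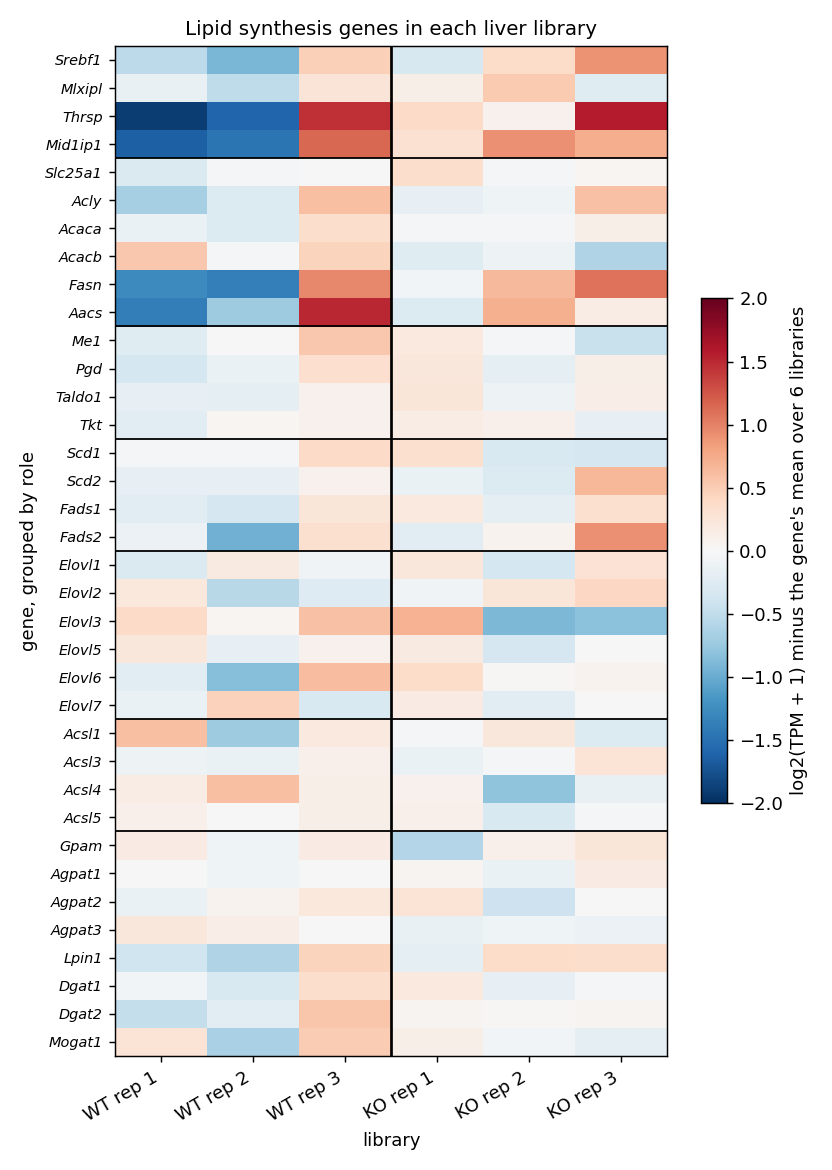
Heat map of the 36 genes (rows, grouped by role with lines between roles) in the 6 libraries (columns; rep, replicate). Colour gives log2(TPM + 1) relative to that gene's average in the 6 libraries, red above and blue below. Thrsp, Mid1ip1 and Fasn are dark blue in WT replicates 1 and 2 and red in WT replicate 3. Aacs is also red in WT replicate 3, and its blue is paler in WT replicate 2 than in WT replicate 1.

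Among the regulators the pattern was clearest in the Spot 14 pair. Thrsp encodes Spot 14, a small lipogenic protein induced by thyroid hormone, insulin and carbohydrate, and lay on mm10 chromosome 7, 97412933 to 97417550. Its level was 83.5, 103 and 866 TPM in WT replicates 1, 2 and 3 and 409, 333 and 929 TPM in KO replicates 1, 2 and 3. WT replicates 1 and 2 lay below every KO library and WT replicate 3 above 2 of them, so the groups overlapped. The highest WT value was 10.4 times the lowest, the widest range of any member, and the highest KO value 2.79 times the lowest. The difference was 1.35 (SE 0.85, interval -0.62 to 3.32; limma adjusted p 0.742), with group means of 351 ± 446 TPM and 557 ± 325 TPM (SD, n = 3 each) in WT and KO.

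Mid1ip1 encodes the Spot 14 paralog that promotes polymerization of acetyl-CoA carboxylase. Its level was 10.1, 11.5 and 75.8 TPM in WT and 41.4, 64.1 and 55.9 TPM in KO. Here WT replicate 3 was the highest of the 6 libraries and the other 2 WT libraries were the lowest. The difference was 1.29 (SE 0.67, interval -0.27 to 2.86; limma adjusted p 0.693). Without WT replicate 3 the differences of Thrsp and Mid1ip1 were 2.42 (SE 0.42; limma adjusted p 0.277) and 2.20 (SE 0.21; limma adjusted p 0.0559), the latter the smallest adjusted p of any member in the fits run, and still short of the threshold. WT replicate 3 held the highest WT value for both genes. Leaving it out therefore raised the differences and narrowed the WT spread by construction, which the p-values of that fit reflect. Without WT replicate 1 the differences of Thrsp and Mid1ip1 were 0.74 and 0.80, without WT replicate 2 they were 0.89 and 0.89, and without KO replicate 3 they were 0.91 and 1.26.

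Srebf1 (chromosome 11, 60199084 to 60222686), whose SREBP-1c product switches on most of these enzymes, lay at 53.3, 40.2 and 107 TPM in WT and 61.4, 99.6 and 143 TPM in KO. Every KO library exceeded WT replicates 1 and 2, and WT replicate 3 exceeded 2 KO libraries (difference 0.63, SE 0.41, interval -0.31 to 1.58). The gene's total does not separate the SREBP-1a and SREBP-1c transcripts. Mlxipl lay at 43.1, 33.6 and 57.8 TPM in WT and 51.8, 69.2 and 40.2 TPM in KO, with overlapping groups and a narrower range (difference 0.26, SE 0.25, interval -0.32 to 0.83). All 4 regulators had a higher mean in KO, and 0 of the 4 passed the test.

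The enzymes of fatty acid synthesis did not share 1 pattern. Fasn, the synthase that assembles palmitate (chromosome 11, 120805958 to 120824547), followed the Spot 14 pair, at 28.2, 26.6 and 137 TPM in WT and 67.4, 110.3 and 149.6 TPM in KO. WT replicates 1 and 2 were the 2 lowest libraries, and WT replicate 3 was exceeded only by KO replicate 3. The mean was 64.0 ± 63.3 TPM in WT and 109 ± 41.1 TPM in KO (SD, n = 3 each), 1.70 times higher, but with a difference of 1.12, an SE of 0.61 and an interval of -0.30 to 2.54 (limma adjusted p 0.700). Without WT replicate 3 the difference was 1.88 (SE 0.32; limma adjusted p 0.266), without WT replicate 1 it was 0.76 and without WT replicate 2 it was 0.72.

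Aacs, which activates acetoacetate in the cytosol for lipid synthesis, lay at 6.25, 10.6 and 52.9 TPM in WT and 14.8, 30.1 and 19.9 TPM in KO. Its mean was slightly higher in WT (23.2 TPM against 21.6 TPM) while the difference on the log2 scale was 0.39 in favour of KO (SE 0.67), with WT replicate 3 at 6.27 times the mean of the other 2 WT libraries. Acly, the ATP citrate lyase that yields cytosolic acetyl-CoA, lay at 47.4, 62.6 and 115 TPM in WT and 67.3, 71.2 and 115 TPM in KO, so that replicate 3 was the highest library in each group (difference 0.22, SE 0.34). Without WT replicate 3 the differences of Aacs and Acly were 1.24 and 0.58, and without WT replicate 1 they were -0.20 and -0.051.

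The 2 acetyl-CoA carboxylases were both of moderate abundance. Acaca, the cytosolic form that makes malonyl-CoA for synthesis, was close to level at 27.4, 24.7 and 38.7 TPM in WT and 29.6, 29.4 and 32.8 TPM in KO (difference 0.041, SE 0.18, interval -0.37 to 0.45). Acacb, the mitochondrial form whose malonyl-CoA restrains fatty acid oxidation (chromosome 5, 114146321 to 114250761), lay at 19.5, 12.9 and 18.2 TPM in WT and 10.9, 12.2 and 8.33 TPM in KO. All 3 KO values were below all 3 WT values, though WT replicate 2 and KO replicate 2 were only 0.685 TPM apart. The difference was -0.63 (SE 0.20, interval -1.09 to -0.17), with the smallest unadjusted limma p of any member, 0.0135, and an adjusted p of 0.536. With 3 against 3 libraries an exact permutation test (two-sided) cannot go below p = 0.1, which it gave here. Slc25a1, the mitochondrial citrate carrier, lay at 108, 129.6 and 133 TPM in WT and 169.8, 129 and 136 TPM in KO, with overlapping groups (difference 0.22, SE 0.15, interval -0.12 to 0.57). Of the 6 genes, 5 had a positive difference and 1 a negative one.

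**Figure D3:**
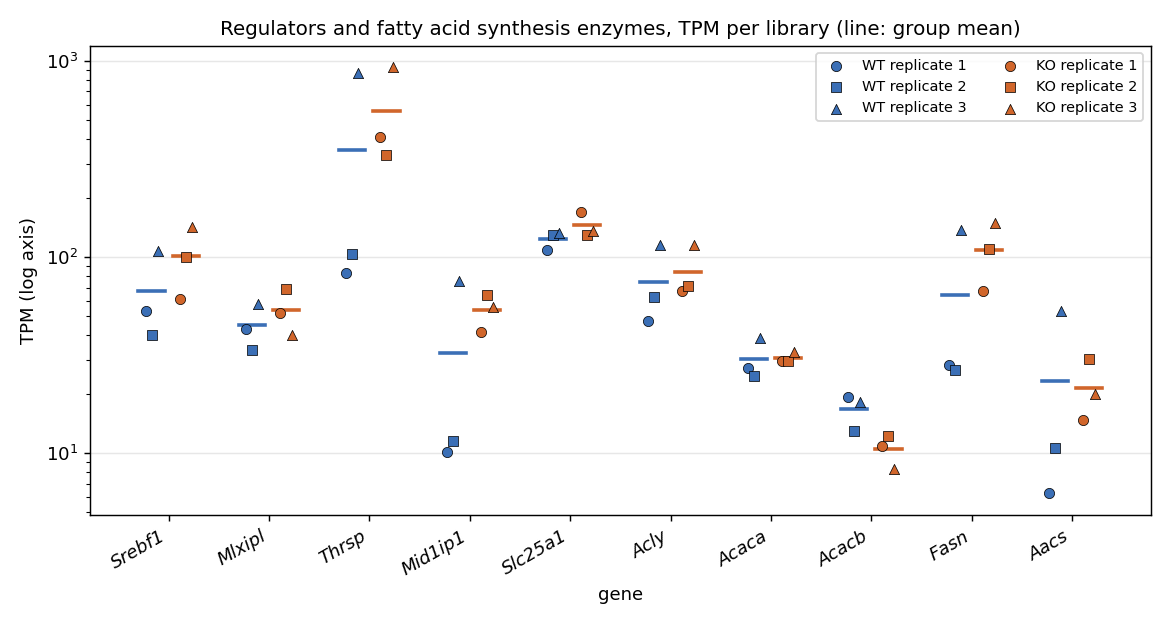
TPM on a log axis for the 4 regulators and the 6 fatty acid synthesis genes. Blue points are WT and orange points KO libraries, circles, squares and triangles are replicates 1, 2 and 3, and lines are group means. The blue triangle (WT replicate 3) lies with the orange points for Thrsp, Mid1ip1 and Fasn, far above the other 2 blue points, and for Acacb all orange points lie below the blue ones.

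The suppliers of NADPH and the pentose phosphate enzymes had a median within-group SD of 0.23, close to the all-gene median. Taldo1, transaldolase of the non-oxidative branch, lay at 100.1, 97.4 and 118 TPM in WT and 133, 105 and 123 TPM in KO (difference 0.19, SE 0.14, interval -0.14 to 0.51). Tkt (transketolase), Pgd (6-phosphogluconate dehydrogenase) and Me1 (malic enzyme) had differences of 0.056, 0.10 and -0.19. Me1 and Pgd were highest in WT replicate 3, Me1 at 186 TPM where the others lay between 93.6 and 147 TPM, and Pgd at 39.5 TPM where the others lay between 24.1 and 36.7 TPM. The high over low range stayed between 1.22 and 1.73 in WT and between 1.25 and 1.57 in KO for the 4 genes, and 0 of the 4 passed.

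Desaturation was dominated by Scd1, the stearoyl-CoA desaturase that makes oleate and palmitoleate and the most abundant of the 36 genes. Scd1 (chromosome 19, 44394450 to 44407709) lay at 1723, 1742 and 2317 TPM in WT and 2209.6, 1433 and 1408 TPM in KO. WT replicate 3 and KO replicate 1 were high and the other 4 libraries lay between 1408 and 1742 TPM, so that the highest WT value was only 1.35 times the lowest, against 5.15 times for Fasn. The difference was -0.21 (SE 0.22, interval -0.72 to 0.29). Its neighbour Scd2, a desaturase of other tissues, was measured at 2.32 to 5.32 TPM, and because the 2 genes are close paralogs and the treatment of shared reads is not given, that level is uncertain.

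Fads2, the delta-6 desaturase that starts the synthesis of long polyunsaturated fatty acids, lay at 353, 196 and 476 TPM in WT and 328, 403 and 719 TPM in KO. WT replicate 2 was the lowest and KO replicate 3 the highest library (difference 0.51, SE 0.38, interval -0.37 to 1.39). Fads1, the delta-5 desaturase encoded beside it, ranged from 164 to 246 TPM in WT and from 182 to 261 TPM in KO, again with WT replicate 2 lowest and KO replicate 3 highest (difference 0.22, SE 0.20).

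The elongases ranged in level from a mean of 0.721 TPM over the 6 libraries for Elovl7 to 414 TPM for Elovl5, which extends polyunsaturated chains. Elovl2, which acts on longer polyunsaturated chains, lay at 425, 248 and 307 TPM in WT and 348, 433 and 485 TPM in KO. Its KO mean was higher (422 TPM against 326 TPM), with WT replicate 1 inside the KO range (difference 0.39, SE 0.22, interval -0.12 to 0.90). Elovl3, an elongase of saturated chains with strong diurnal and sex-dependent regulation in mouse liver, lay at 5.24, 3.93 and 6.21 TPM in WT and 6.74, 1.56 and 1.71 TPM in KO. KO replicate 1 was the highest of the 6 libraries and KO replicates 2 and 3 the lowest, the widest KO range of any member at 4.33 times (difference -0.68, SE 0.41, interval -1.63 to 0.27).

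Elovl6, the SREBP-1c target that turns palmitate into stearate, ranged from 52.1 to 145 TPM in WT, with WT replicate 3 highest, and from 96.6 to 123 TPM in KO (difference 0.31, SE 0.33). Elovl5 (-0.10), Elovl1 (0.11) and Elovl7 (-0.024) had small differences with intervals on both sides of 0. Of the 6 elongases 3 had a positive and 3 a negative difference, and 0 passed.

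Of the long-chain acyl-CoA synthetases, which activate fatty acids for all later steps, Acsl1 and Acsl5 were the abundant ones, with means over the 6 libraries of 169 and 168 TPM, and Acsl4 and Acsl3 lay at 31.1 and 19.1 TPM. Acsl4, which prefers arachidonic acid (chromosome X, 142317993 to 142390800), lay at 33.4, 45.7 and 32.3 TPM in WT and 31.8, 16.6 and 26.9 TPM in KO. All KO values were below all WT values, but the highest KO and the lowest WT library were 0.516 TPM apart. The difference was -0.58 (SE 0.25, interval -1.15 to -0.0013; limma unadjusted p 0.0496, adjusted p 0.621), and the exact permutation test again gave p = 0.1. Acsl1, a target of PPAR-alpha, ranged from 98.7 TPM in WT replicate 2 to 246 TPM in WT replicate 1 and from 135 to 190.3 TPM in KO (difference -0.053, SE 0.32). The differences of Acsl3 (0.085, SE 0.15) and Acsl5 (-0.15, SE 0.14) were small, and Acsl5 was the least variable of the 4 genes, with a within-group SD of 0.15.

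Esterification genes had a median within-group SD of 0.30, against 0.41 for those of fatty acid synthesis. Gpam, the mitochondrial glycerol-3-phosphate acyltransferase of the first step, lay at 73.4, 61.6 and 73.8 TPM in WT and 43.6, 70.4 and 78.2 TPM in KO, with KO replicate 1 alone low (difference -0.16, SE 0.22, interval -0.67 to 0.36). Without KO replicate 1 the difference was 0.096. Agpat3, an acyltransferase of the next step (chromosome 10, 78269174 to 78352484), lay at 86.4, 81.1 and 73.4 TPM in WT and 66.8, 69.8 and 67.9 TPM in KO. The groups did not overlap, and the gene had the smallest within-group SD of the 36, at 0.086. The difference was -0.23 (SE 0.11, interval -0.50 to 0.037; limma adjusted p 0.684; exact two-sided permutation p = 0.1). Agpat1 ranged from 7.46 to 9.40 TPM over all 6 libraries and Agpat2 from 155 to 251 TPM, with differences of 0.052 and -0.10.

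The last step, which commits diacylglycerol to triglyceride, is shared by 2 unrelated enzymes. Dgat2, the form tied to newly made fatty acids and the more abundant here, lay at 263, 312 and 538 TPM in WT and 381, 371 and 378 TPM in KO. The 3 KO libraries lay within 1.03 times of each other, between WT replicate 2 and WT replicate 3, and the difference was 0.090 (SE 0.25, interval -0.49 to 0.67). Without WT replicate 3 it was 0.39 (SE 0.13; limma adjusted p 0.466) and without WT replicate 1 it was -0.12. Dgat1, the form that re-esterifies fatty acids from outside, lay at 12.7, 10.6 and 17.3 TPM in WT and 15.3, 11.8 and 13.1 TPM in KO, a difference of 0.0022 (SE 0.19, interval -0.44 to 0.44) that was negative after median scaling (-0.034) or quantile normalization (-0.025). Lpin1, a phosphatidate phosphatase, ranged from 9.51 to 20.8 TPM in WT and from 13.1 to 19.6 TPM in KO (difference 0.37, SE 0.29). Mogat1, a monoacylglycerol acyltransferase, ranged from 0.872 to 3.21 TPM and from 1.57 to 2.18 TPM (-0.089, SE 0.29). Of the 8 genes 4 had a positive and 4 a negative difference, with Dgat1 moving to the negative side under both scalings, and 0 passed.

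**Figure D4:**
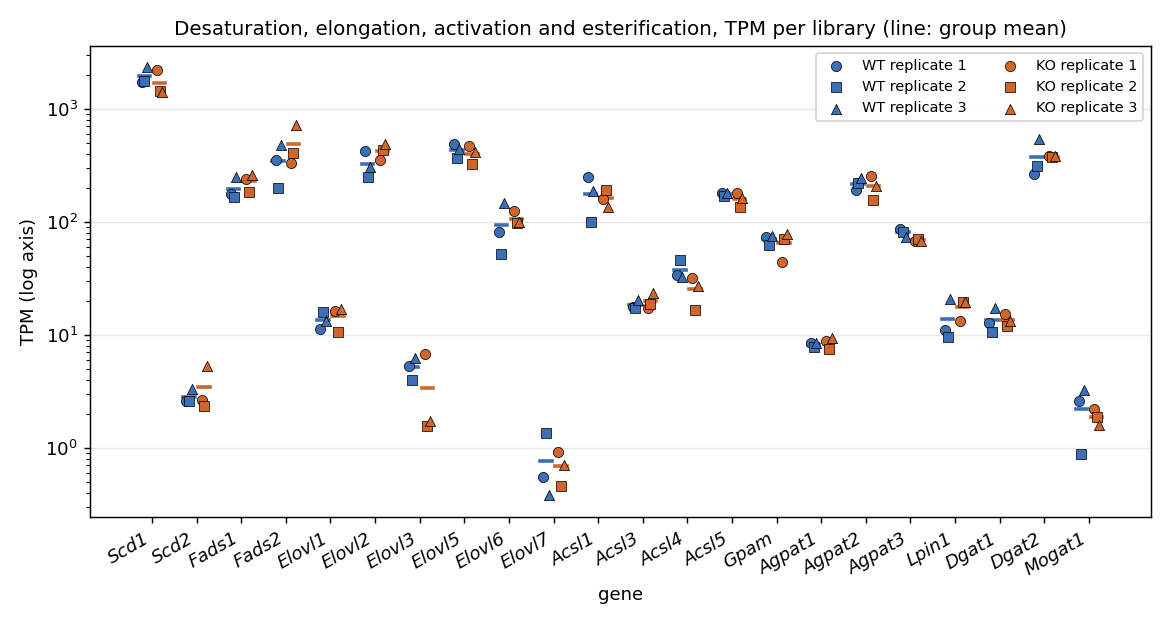
TPM on a log axis for the desaturation, elongation, activation and esterification genes. Symbols, colours and lines are as in the plot of the regulators. Most groups overlap, Agpat3 and Acsl4 have all orange points below the blue ones, and the 3 KO points of Dgat2 coincide at 371 to 381 TPM.

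How large a difference the 6 libraries could have hidden varied with the spread. For Agpat1, Agpat3 and Acsl5 the 95% intervals together spanned -0.50 to 0.35 on the log2 scale. For Fasn, Mid1ip1 and Thrsp the upper bounds were 2.54, 2.86 and 3.32 and the lower bounds -0.30, -0.27 and -0.62, so that the data neither showed a difference nor limited it tightly. A p above the threshold does not show that these genes were equal in the 2 groups. In bulk tissue, fewer cells of a type and less RNA per cell cannot be told apart.

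**Figure D5:**
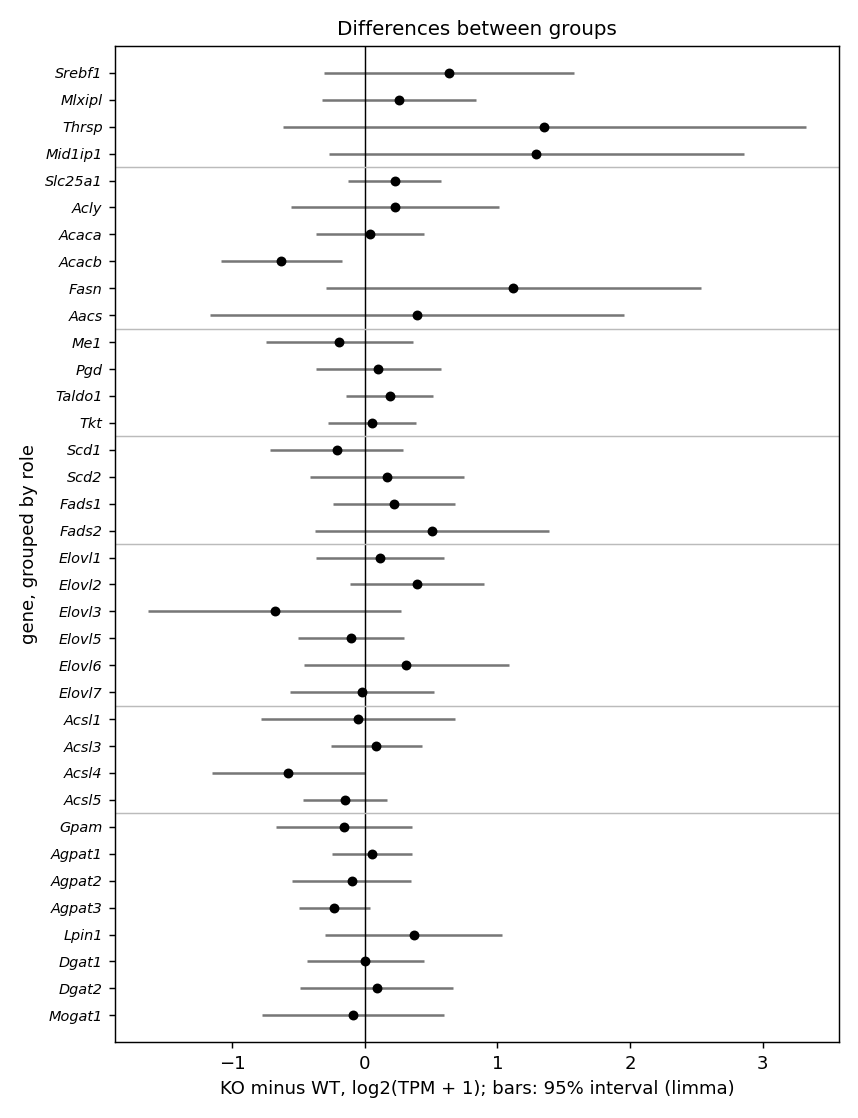
Difference between KO and WT on the log2(TPM + 1) scale for the 36 genes, grouped by role. Points are limma estimates, horizontal bars their 95% intervals, and the vertical line marks 0. The bars of Thrsp, Mid1ip1, Fasn and Aacs are the longest, and only those of Acacb and Acsl4 (the latter ending at -0.0013, at the line) do not cross 0, before adjustment for the number of genes.

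Without WT replicate 3, 9 members had an unadjusted limma p under 0.05 (9.27% of all genes tested had one in that fit). Of these Mid1ip1, Thrsp, Fasn, Aacs, Srebf1, Elovl6, Lpin1 and Dgat2 were higher in KO (8 genes; 5.25% of all genes tested were) and Acacb was lower. Of the 8 higher genes all were among those in which WT replicate 3 lay at least 1.5 times above both other WT libraries. Leaving out that library therefore raised their difference and narrowed their WT spread by construction. 0 members passed the adjusted threshold in that fit, and 0 in each of the fits that left out another library.

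Markers of other cell types were read beside these values. Of the 8 adipocyte genes, Adipoq, Plin1, Lep, Cfd and Retn were highest in KO replicate 1, at 1.99, 0.490, 0.0282, 5.94 and 0.394 TPM. In the other 5 libraries Adipoq, Lep and Retn had no value, Cfd was at most 0.105 TPM (WT replicate 3) and Plin1 at most 0.0926 TPM (WT replicate 1). Cidea lay at 0.0827, 0.157 and 0.231 TPM in KO replicates 1, 2 and 3 and had no value in WT. KO replicate 1 held the highest KO value for 16 of the 36 members (44.4%, against 42.0% of all genes tested). Scd1, Elovl3, Elovl6, Me1 and Agpat2 were among them. The same library held the lowest KO value for 11 (30.6%, against 32.3%), among them Srebf1, Mid1ip1, Fasn and Aacs. Both shares were close to those of all genes. The whole adipocyte list summed to 894 to 1905 TPM in WT and 909.9 to 2041 TPM in KO, nearly all of it from Pck1, which hepatocytes express as well, as they do Lipe. No gene of the list was at 0 in all 6 libraries. Endothelial markers summed to 110.4 to 152 TPM in WT and 171 to 214 TPM in KO, macrophage markers to 135 to 355 and 241 to 633 TPM, and neutrophil markers to 20.3 to 49.4 and 14.8 to 20.3 TPM. The part of these other cells in the differences above was not tested.

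Genes that feed signals into SREBP-1c and ChREBP were read from a second list of 24, all of them tested. Of these 12 were higher and 12 lower in KO, 0 passed the threshold, and the median difference was -0.013. Insig2, which retains SREBP precursors in the endoplasmic reticulum and whose liver transcript insulin represses, lay at 115, 86.0 and 109 TPM in WT and 74.7, 68.3 and 65.9 TPM in KO, without overlap (difference -0.55, SE 0.14; limma adjusted p 0.522). Irs2, the insulin receptor substrate whose transcript is high in fasting, lay at 15.9, 15.9 and 8.69 TPM in WT and 3.73, 9.74 and 4.60 TPM in KO (-1.10, SE 0.34; limma adjusted p 0.536). Within WT, replicate 3 was the lowest and lay inside the KO range. Slc2a2, the glucose transporter of hepatocytes, lay at 265, 255 and 296 TPM in WT and 294, 405 and 566 TPM in KO (0.58, SE 0.23; limma adjusted p 0.581). Srebf2, which encodes the sterol-regulated SREBP-2, was lower in every KO library (-0.26, SE 0.12; limma adjusted p 0.672).

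Of 32 further enzymes of the same pathways, 26 were abundant enough to test, 12 higher and 14 lower in KO, with a median difference of -0.049 and 0 past the threshold. The smallest p belonged to Plpp3, a lipid phosphate phosphatase, at 110.0, 133 and 126 TPM in WT and 100.2, 92.8 and 81.8 TPM in KO, without overlap (-0.42, SE 0.13; limma adjusted p 0.536). H6pd, the hexose-6-phosphate dehydrogenase of the endoplasmic reticulum, followed (-0.61, SE 0.22; limma adjusted p 0.574), then G6pdx, which opens the cytosolic pentose phosphate pathway (0.30, SE 0.16), and Plpp1 (0.32, SE 0.18). Elovl4, Scd3, Scd4, Acsl6, Acsbg1 and Mogat2 did not reach the filter and lay between 0 and 0.613 TPM in every library.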

How the data were processed

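RNA was extracted from flash-frozen liver with TRIzol and sequenced on an Illumina HiSeq machine, per the labels' protocols. The submitters' processing notes name mm10, FastQC and Trimmomatic. An aligner, a quantification tool, an annotation and versions are not given in those sources. The deposited values are in columns named TPM, per the file headers, but are on a log2 scale: they fall below 0, and back-transformed they total 983800 to 1018118 in a library. All 6 columns share 1 maximum (16.59), minimum (-8.88) and median (1.07), as quantile normalization leaves. Both were read from the values.

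Blanks were taken as a TPM of 0 and values back-transformed to TPM, the unit for which the design was written. Genes with a mean of at least 0.5 TPM (14155) were tested on log2(TPM + 1) with limma 3.58.1 under R 4.3.3 (linear model, moderated with an abundance trend, two-sided, group as the only term, 4 residual and 3.65 prior degrees of freedom), Benjamini-Hochberg adjusted over all genes, threshold 0.05. The test was checked on simulated data in which each gene was drawn independently. That check did not cover shifts shared by many genes of 1 library. The within-group SD was pooled over both groups. Whether each replicate is a separate mouse is not stated, so p-values reflect only how these libraries vary, which may be technical, and their number limits the precision.

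The members and lists were chosen with earlier results of these data known. Values in every library are given for members with the 12 smallest p or the 8 largest within-group SDs and for Srebf1, Mlxipl, Fasn, Acly, Acaca, Scd1, Gpam, Dgat1 and Dgat2, and of each other list for up to 4 genes with the smallest p. The list symbols (170 with cell type markers) were all matched, 2 of them through an older symbol in the GRCm38.p6 RefSeq gene table. Coordinates are those of the deposited table. Alternatives were other pseudocounts, filters and scalings, a replicate block and leaving out libraries. Promoter motifs had been planned and were not analysed here. A result on 1 further gene is not reported here.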

Additional observations from a re-analysis of the deposited data

How the results depend on the processing

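In all 14 alternative settings 0 of the members passed the threshold (limma, Benjamini-Hochberg). The number of all genes past it, 1 (Fabp4), was 0 without a filter, 0 with log2 TPM and no pseudocount, 0 with the replicate block, and 0 to 2 when 1 library was left out. Members at an unadjusted p under 0.05 numbered 2, against 1 with a pseudocount of 0.1 and 5 with the replicate block. They also numbered 5 without the libraries apart on principal components 1 and 2 (WT replicate 2 and KO replicate 1, chosen after seeing the data). When 1 library was left out they numbered 0 to 9, 9 being the fit without WT replicate 3 (9.27% of all genes tested). Of the 14155 genes, 715 higher and 417 lower in KO had such a p with that pseudocount. With the replicate block these were 484 and 332, and without the libraries apart 516 and 465. Whether same-numbered libraries were paired is not stated. Their deviations from the group means correlated at -0.26, -0.27 and -0.049 across all genes tested, which cannot show how the mice were paired. The median difference of the members, 0.087, lay between -0.0071 (without WT replicate 1) and 0.20 (without WT replicate 3). Their median within-group SD stayed between 0.30 and 0.35.

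For 17 members the direction held in every setting that tested them, but the size often did not. Leaving out 1 library gave 0.34 to 1.03 for Srebf1, 0.060 to 0.45 for Mlxipl, 0.74 to 2.42 for Thrsp, 0.80 to 2.20 for Mid1ip1, 0.72 to 1.88 for Fasn, 0.11 to 0.30 for Slc25a1, 0.11 to 0.28 for Taldo1, -0.43 to -0.074 for Scd1, 0.11 to 0.40 for Fads1, 0.15 to 0.79 for Fads2, 0.21 to 0.60 for Elovl2, -1.20 to -0.40 for Elovl3, -0.77 to -0.32 for Acsl4, -0.24 to -0.037 for Acsl5 and 0.16 to 0.68 for Lpin1. The values of Acacb (-0.80 to -0.49) and Agpat3 (-0.29 to -0.18) moved by less than 1.5 times. For 19 members the direction did not hold, and none of these had a difference above 0.39 in size. Leaving out 1 library gave, on the log2 scale, -0.051 to 0.58 for Acly, -0.087 to 0.23 for Acaca, -0.20 to 1.24 for Aacs, -0.36 to 0.028 for Me1, -0.051 to 0.29 for Pgd, -0.039 to 0.15 for Tkt, -0.12 to 0.34 for Scd2, -0.0030 to 0.31 for Elovl1, -0.22 to 0.039 for Elovl5, -0.035 to 0.70 for Elovl6, -0.18 to 0.20 for Elovl7, -0.42 to 0.23 for Acsl1, -0.034 to 0.17 for Acsl3, -0.32 to 0.096 for Gpam, -0.014 to 0.13 for Agpat1, -0.26 to 0.084 for Agpat2, -0.15 to 0.18 for Dgat1, -0.12 to 0.39 for Dgat2 and -0.44 to 0.15 for Mogat1. Without both libraries apart on the components, signs turned for Acaca (-0.065), Pgd (-0.027), Elovl6 (-0.14), Elovl7 (0.11), Gpam (0.012), Dgat1 (-0.24) and Dgat2 (-0.0079). Elovl7 turned with a pseudocount of 0.1 (0.0087) or none (0.028), and Dgat1 after median scaling (-0.034) or quantile normalization (-0.025). Fewer libraries give less power, and otherwise the cause was not tested. Filtering at 5 TPM left 32 members. Depth is unknown.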
